A study of Mus musculus with 6 samples.

Results

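The angiopoietin and Tie receptor system was examined in endothelial cells (ECs) sorted from metastatic mouse lungs, with or without prior injection of macrophage-depleting liposomes. Its members were 7 listed genes, the ligands Angpt1 and Angpt2, the receptors Tek (Tie2) and Tie1, the phosphatase Ptprb (VE-PTP) and the angiopoietin-like genes Angptl2 and Angptl4, and every probe set that the array annotation gives to 1 of these symbols alone was taken. This gave 11 of 45037 tested probe sets, for 6 of the 7 genes. No tested probe set was annotated to Angptl2 alone, and that gene has no value here. Angpt1, Angpt2 and Angptl4 had 2 probe sets each, Ptprb had 3, and Tek and Tie1 had 1 each.

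Both groups were NSG mice of 6 to 8 weeks, which lack T, B and natural killer cells, and the study's methods give all mice as female. All carried lung metastases of MDA-MB-231-LM2 (MDA-LM2), a lung-seeking subline of the human breast cancer line MDA-MB-231, seeded through the tail vein. The clodronate-liposome group received liposomes loaded with clodronate, which kills phagocytes that ingest them, and the PBS-liposome group received liposomes loaded with PBS, in both cases on days 14, 16 and 18, with lungs taken on day 20 (3 arrays per group). The design text gives 100 ul per injection and the methods a larger volume. ECs were sorted from whole lungs as CD31-positive cells after exclusion of CD45, CD11b, EpCAM, CD140a, CD140b and GFP-positive tumor cells. How many mice each biological replicate holds is not given in the labels, and healthy or untreated lungs were not analysed here, so each value compares 2 kinds of metastatic lung.

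Angiopoietins are secreted ligands of the receptor tyrosine kinase Tie2, which is found on ECs. Angpt1, made mainly by pericytes and other supporting cells, activates Tie2 and keeps vessels quiescent, and Angpt2, made and stored by ECs themselves, acts against Angpt1 in many settings and is associated with vessel destabilization and inflammation. Active Tie2 signals through PI3 kinase and AKT, which holds the transcription factor FOXO1 out of the nucleus, and Angpt2 is itself a known FOXO1 target gene in ECs.

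Across the system, 0 of 11 probe sets passed the threshold of the limma test (adjusted p under 0.05 over all probe sets), where 0.306% of all probe sets did (0.0688% higher and 0.238% lower after clodronate-liposomes). At unadjusted p under 0.05 there were 3, both probe sets of Angpt2 and 1 of Angpt1, all higher in clodronate-liposome ECs. The background was 5.53% of probe sets higher and 5.27% lower at that limit. By gene, read at the brightest probe set, 1 of 6 members was under that limit (Angpt2), where 4.54% of genes were higher and 5.49% lower. Of these 6, 0 were separated between groups, where 7.49% of genes were separated higher and 8.75% lower. The count of 3 probe sets was 0 without clodronate-liposome replicate 1 or without PBS-liposome replicate 3, 1 without PBS-liposome replicate 2, and 1 with the hybridization controls as a covariate. In the same order, 4544, 4233, 4130 and 4710 of 45037 probe sets were under that limit across the array. The probe sets of the receptors and of Ptprb had differences between -0.08 and 0.13 on the log2 scale. As these are bulk samples of sorted cells, fewer cells that express a gene and less RNA per cell cannot be told apart.

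Arrays and cell identity were as follows. All 6 arrays had a median log2 signal of 8.13, and arrays correlated across probe sets, which do not count as replicates, at a Pearson r of 0.986 to 0.990 among clodronate-liposome arrays, 0.989 to 0.991 among PBS-liposome arrays and 0.985 to 0.988 between groups. Hybridization controls were at 11.91, 12.20 and 11.94 on clodronate-liposome arrays 1, 2 and 3 and at 12.11 to 12.24 on PBS-liposome arrays, so replicates 1 and 3 stood apart. The same arrays stood apart in 18S ribosomal RNA signal, at 13.01, 12.33 and 13.00 on clodronate-liposome arrays 1, 2 and 3 and at 12.39 to 12.63 on PBS-liposome arrays. Values with the hybridization controls as a covariate are given in the closing section. The part of the 18S signal in the results was not tested. Pecam1 (CD31) read 13.53 to 13.70 in clodronate-liposome and 13.50 to 13.58 in PBS-liposome arrays. As the cells were sorted by CD31, its level is no test of the EC label. Cdh5 (VE-cadherin), which was not used in the sort, read 13.25 to 13.58 and 13.34 to 13.42. None of the 10 pan-endothelial markers passed, with a median difference of 0.06, and Flt1, a VEGF receptor, had the lowest at -0.24 without overlap. Outside the first 2 genes of each list, markers here and further on were named after their values had been seen. Differences were 0.03 for Lyve1, -0.05 for Prox1 and 0.38 for Reln, lymphatic EC markers of which Reln alone was separated between groups, -0.13 for Epcam and -0.05 (SE 0.95) for Sftpc, epithelial markers, and 0.17 for S100a8 and 0.02 for S100a9, neutrophil markers. Sftpc varied widely within groups, at 8.49, 12.78 and 11.47 on clodronate-liposome arrays and 11.38, 10.14 and 11.35 on PBS-liposome arrays. So did the epithelial marker Scgb1a1, at 11.28, 7.53 and 7.89 and at 10.37, 10.06 and 8.76 (difference -0.83, SE 0.92). Of the 6 epithelial markers 2 had a difference above 0 and 4 below 0. The summed linear signal of the 5 measured lymphatic markers was 18299 to 18902 in clodronate-liposome and 17525 to 18726 in PBS-liposome arrays. That of the 6 epithelial markers was 3828 to 8179 and 3216 to 5088, and that of the 4 measured neutrophil markers 861 to 1166 and 898 to 1060. The groups overlapped in each of these 3 lists. Lyve1, the brightest lymphatic marker (13.42, 13.25 and 13.35 in clodronate-liposome arrays), weighs most in the lymphatic sum, which says little about the dimmer Prox1.

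Angpt2, the ligand that ECs make themselves, had its brightest probe set (1448831_at) at 12.07, 12.22 and 11.66 in clodronate-liposome replicates 1, 2 and 3 and at 11.74, 11.43 and 11.45 in PBS-liposome replicates 1, 2 and 3 (log2 signal). Clodronate-liposome replicate 3 lay below PBS-liposome replicate 1, so the groups overlapped. Means were 11.98 ± 0.29 and 11.54 ± 0.17 (SD, n = 3 each), so that clodronate-liposome ECs were 0.44 higher (log2, SE 0.16, 1.36-fold, unadjusted 95% confidence interval 0.07 to 0.82), a difference that did not pass (limma adjusted p = 0.369). The second probe set of Angpt2 (1459636_at), at percentile 56.3 of mean signal over all tested probe sets, was much dimmer. It read 8.82, 8.68 and 8.60 in clodronate-liposome arrays and 8.42, 8.48 and 8.27 in PBS-liposome arrays. Here all 3 clodronate-liposome arrays lay above all PBS-liposome arrays, with a difference of 0.31 (SE 0.11, limma adjusted p = 0.331). Both Angpt2 probe sets thus pointed the same way, with 1 array left out at 0.32 to 0.60 for the first and 0.25 to 0.36 for the second. Relative to the mean of the 10 pan-endothelial markers on the same array, a scale chosen after the data had been seen, Angpt2 read -1.15, -0.74 and -1.44 in clodronate-liposome arrays and -1.35, -1.59 and -1.64 in PBS-liposome arrays, a difference of 0.42 (SE 0.18).

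Angpt1, the Tie2 agonist, was read by 2 probe sets, at percentiles 51.4 and 48.3 of mean signal over all tested probe sets. Whether signal of that rank lay over background was not assessed. The brighter one (1439066_at) was 8.71, 8.24 and 8.11 in clodronate-liposome replicates 1, 2 and 3, against 8.35, 8.07 and 7.72 in PBS-liposome replicates 1, 2 and 3. The groups overlapped, with SDs of 0.32 in both, and the difference of 0.31 (SE 0.20) did not pass (limma adjusted p = 0.663). Leaving out clodronate-liposome replicate 1 gave 0.13, and leaving out PBS-liposome replicate 3 gave 0.14. The other probe set (1421441_at) was 8.18, 8.11 and 8.15 in clodronate-liposome arrays and 7.98, 7.89 and 7.79 in PBS-liposome arrays. It was the second of 2 member probe sets whose groups did not overlap, both higher after clodronate-liposomes and none lower, where 7.97% of all probe sets were separated higher and 8.04% lower. Its difference was 0.26 (SE 0.095, limma adjusted p = 0.378), or 1.19-fold.

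Cell types outside the endothelium are known sources of Angpt1, and 3 of their marker lists were read beside it. The summed linear signal of the 9 mural and fibroblast markers was 4619 to 5772 in clodronate-liposome arrays and 5832 to 6060 in PBS-liposome arrays, without overlap. Pdgfrb, the pericyte receptor used as a negative marker in the sort, had a difference of -0.27 (SE 0.098, limma adjusted p = 0.369), and Pdgfra, the fibroblast receptor, one of -0.19. Of the 9 markers 7 had a difference below 0, as low as -0.52 for Dcn, and 2 one above 0, the pericyte marker Rgs5 (0.45, SE 0.28, overlapping) and Des (0.16, SE 0.19). Pdgfrb and Acta2 (-0.21, SE 0.11) were separated lower and 0 of the 9 higher, where 8.75% of all genes were separated lower and 7.49% higher. The 5 measured platelet and megakaryocyte markers summed to 1957 to 2979 in clodronate-liposome and 2578 to 3029 in PBS-liposome arrays, with differences of 0.13 for Pf4, -0.44 for Ppbp and -0.56 for Itga2b, the last 2 without overlap. The 5 mesothelial markers summed to 774 to 2496 and 817 to 1193, and clodronate-liposome replicate 3 held the highest value, with Msln at 8.77 there against 7.28 and 7.07 in the other clodronate-liposome arrays and 7.02 to 7.30 in PBS-liposome arrays. All 5 had a difference above 0 (median 0.45), where 8925 of 18193 genes did, and 0 were separated between groups. No marker of these lists passed, and their part in the Angpt1 difference was not tested.

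**Figure D1:**
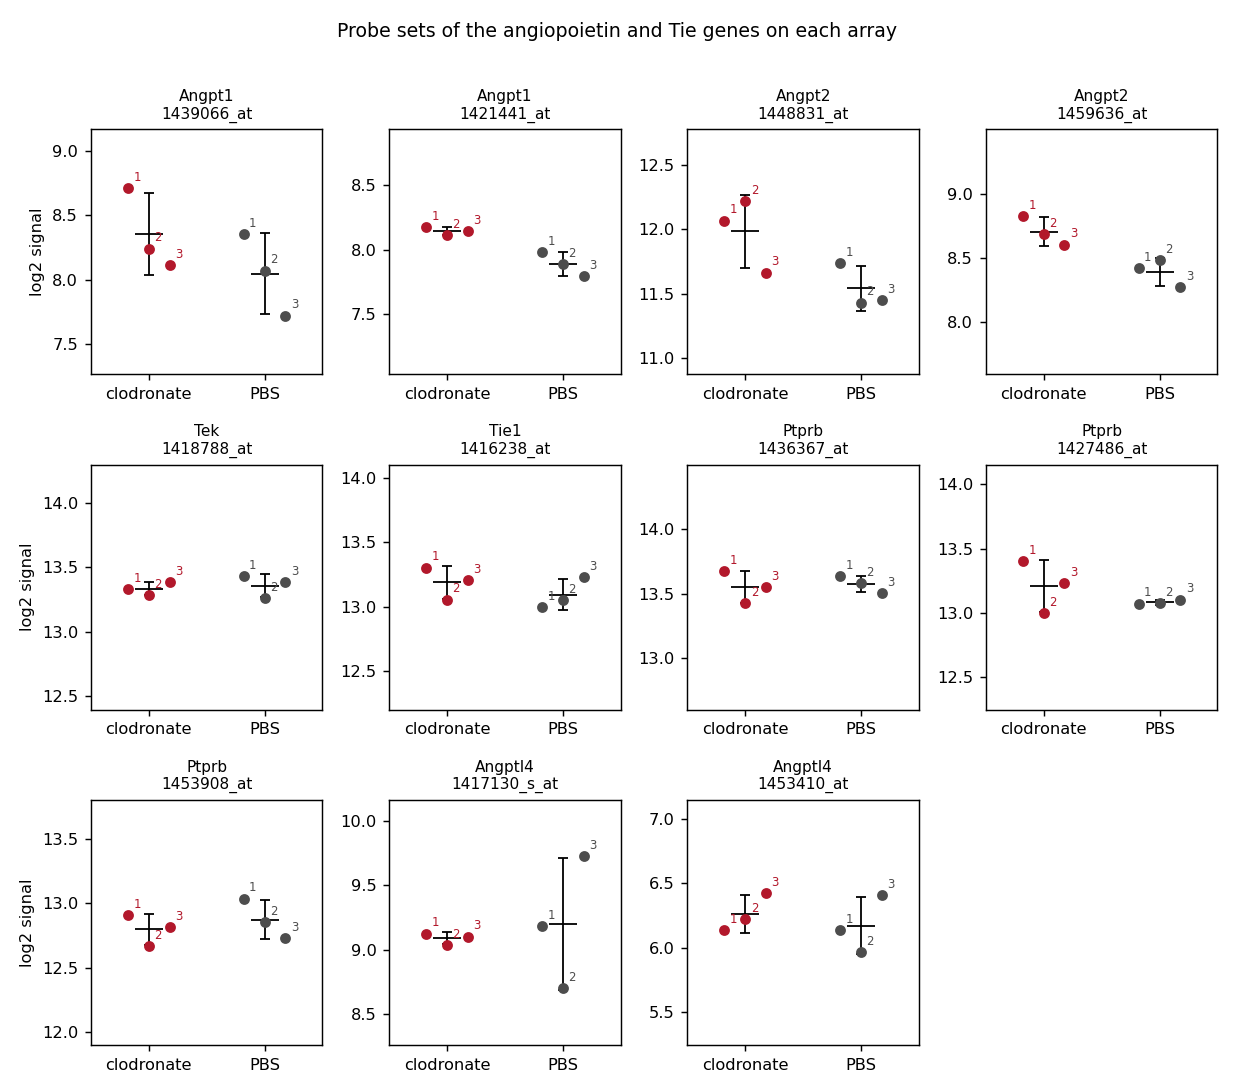
Log2 signal (vertical axes, each spanning the same range) of the 11 probe sets on the 3 clodronate-liposome and 3 PBS-liposome arrays, with each dot an array labelled by its replicate number and black marks the mean ± SD. The second probe sets of Angpt1 and Angpt2 lay higher on all clodronate-liposome arrays, Tek, Tie1 and Ptprb overlapped between groups, and Angptl4 (1417130_s_at) stood at 9.72 on PBS-liposome replicate 3.

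The receptors carry the endothelial side of the system, and their promoters are shown as the regulatory sequence in front of both receptor genes, which were read at high signal on every array. Both windows hold 300 bases, mostly upstream of the annotated start, 5′ to 3′ on the gene's strand (RefSeq sequences, GRCm38.p6, chr4:94739039-94739338 on the plus strand for Tek and chr4:118489800-118490099 on the minus strand for Tie1), and capitals mark GGAA or its reverse complement TTCC, the core letters bound by ETS factors, a family that drives many endothelial genes.
Tek: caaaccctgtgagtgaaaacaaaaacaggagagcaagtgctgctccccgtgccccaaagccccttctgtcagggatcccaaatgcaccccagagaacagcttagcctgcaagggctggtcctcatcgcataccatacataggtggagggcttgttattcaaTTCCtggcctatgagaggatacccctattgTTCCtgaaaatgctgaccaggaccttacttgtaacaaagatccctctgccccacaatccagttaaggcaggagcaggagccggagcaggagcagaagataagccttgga
Tie1: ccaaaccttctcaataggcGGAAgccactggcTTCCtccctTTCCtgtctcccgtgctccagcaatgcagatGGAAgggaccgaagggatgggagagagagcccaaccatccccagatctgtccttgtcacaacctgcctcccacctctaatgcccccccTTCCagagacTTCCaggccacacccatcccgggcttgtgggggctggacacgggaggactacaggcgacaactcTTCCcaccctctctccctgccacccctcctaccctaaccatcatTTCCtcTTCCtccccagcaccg
The Tek window held 2 of these cores and the Tie1 window 9. Over 32851 promoters of this length in the table, 96.0% held at least 1, the median was 3, and 1.59% held 9 or more. The FOXO letters GTAAACA, searched on both strands, were in neither window and in 3.65% of all promoters, and their last 5 letters AAACA, which overlap them, stood 2 times in the Tek window, 0 times in that of Tie1 and in 50.5% of all promoters. A match of letters describes the sequence and is no evidence of binding. Of the 7 members, 3 had a promoter in the table.

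Tek, which encodes Tie2, the receptor of both angiopoietins, read 13.33, 13.28 and 13.39 in clodronate-liposome replicates 1, 2 and 3 and 13.43, 13.26 and 13.38 in PBS-liposome replicates 1, 2 and 3. The groups overlapped throughout, and the difference of -0.02 (SE 0.096) did not pass (limma adjusted p = 0.961). Its 95% confidence interval ran from -0.25 to 0.20, that is 0.843-fold to 1.15-fold. Tie1, the related receptor that forms complexes with Tie2, read 13.30, 13.05 and 13.21 in clodronate-liposome arrays and 13.00, 13.05 and 13.23 in PBS-liposome arrays. Its difference was 0.09 (SE 0.11, limma adjusted p = 0.841, interval 0.893-fold to 1.28-fold). Clodronate-liposome replicate 2 and PBS-liposome replicate 2 read the same to 2 decimals.

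Tek is also known from a subset of perivascular macrophages, the cells that clodronate targets, and macrophage markers were therefore set beside it. The 8 markers summed to 7943 to 8686 in clodronate-liposome and 7788 to 8823 in PBS-liposome arrays on the linear scale, overlapping between groups. Mertk, the brightest at 11.99 to 12.39 in clodronate-liposome and 11.97 to 12.15 in PBS-liposome arrays, weighs most in that sum. The sum therefore says little about the dimmer markers. Csf1r, the receptor for macrophage growth factor, read 8.09, 8.08 and 7.98 in clodronate-liposome arrays and 8.82, 8.46 and 8.81 in PBS-liposome arrays, with a difference of -0.65 (SE 0.12, limma adjusted p = 0.101). Adgre1 (F4/80) differed by -0.17 (SE 0.21). Of the 8 markers 5 had a difference below 0, the others being Cd68 (-0.08), Cd163 (-0.07) and Lyz2 (-0.03), and 3 one above 0, Fcgr1 (0.32, SE 0.21), Mertk (0.07) and Mrc1 (0.05). The part of macrophage RNA in the Tek signal was not tested.

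Ptprb, the endothelial phosphatase that dephosphorylates Tie2 and associates with VE-cadherin, was read by 3 probe sets. The brightest (1436367_at) was 13.68, 13.42 and 13.55 in clodronate-liposome replicates 1, 2 and 3 and 13.63, 13.58 and 13.51 in PBS-liposome replicates 1, 2 and 3, with a difference of -0.02 (SE 0.10, limma adjusted p = 0.964). The other probe sets differed by 0.13 (1427486_at, SE 0.12) and -0.08 (1453908_at, SE 0.12). The 3 did not share a sign, and all of them overlapped between groups. On each of the 3, clodronate-liposome replicate 1 was the highest and replicate 2 the lowest array of its group.

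Angptl4, a secreted inhibitor of lipoprotein lipase that is induced by fasting, hypoxia and PPAR activation, does not bind Tie2 despite its name. Its brighter probe set (1417130_s_at) read 9.12, 9.04 and 9.10 in clodronate-liposome replicates 1, 2 and 3 and 9.18, 8.70 and 9.72 in PBS-liposome replicates 1, 2 and 3. The spread was 0.046 in clodronate-liposome and 0.51 in PBS-liposome arrays (SD, n = 3 each), and PBS-liposome replicate 3 was the highest of all. The difference of -0.11 (SE 0.23, limma adjusted p = 0.916) turned to 0.15 without PBS-liposome replicate 3. On that array the macrophage markers also had their highest mean (9.04 log2 signal, against 8.70 to 8.93 on clodronate-liposome arrays and 8.77 and 8.82 on the other PBS-liposome arrays), and their part in the Angptl4 value was not tested. The second, dim probe set (1453410_at), which read 6.14 to 6.42 in clodronate-liposome and 5.97 to 6.40 in PBS-liposome arrays, differed by 0.09 (SE 0.14).

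**Figure D2:**
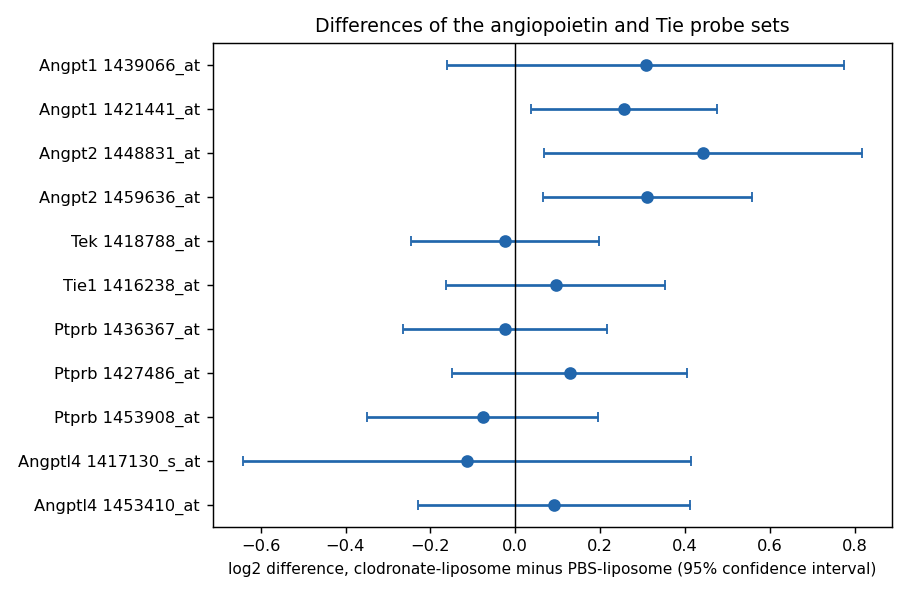
Log2 difference, clodronate-liposome minus PBS-liposome (horizontal axis), of the 11 probe sets with the 95% confidence interval of the limma fit, not adjusted for multiple testing. Both probe sets of Angpt2 (0.44 and 0.31) and 1 of Angpt1 (0.26) had intervals above 0, while the interval of Tek ran from -0.25 to 0.20 and that of Tie1 from -0.16 to 0.35.

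Each remaining gene of the wider pathway was read by its brightest probe set, and 0 genes of the 4 pathway lists passed the threshold, where 0.434% of 18193 genes did. The other angiopoietin family genes, 5 measured of 6, had a median difference of -0.02, where that over all genes was -0.0031, and 0 had an unadjusted p under 0.05. Angptl8, a partner of angiopoietin-like proteins in lipase control, differed by 0.24 (SE 0.20), Angpt4, a further Tie2 ligand, by 0.15 (SE 0.33) and Angptl7 by -0.04 (SE 0.099). The Angptl8 difference was 0.0084 without PBS-liposome replicate 3, which at 9.29 was the lowest of the 6 arrays, and that of Angpt4 lay between -0.06 and 0.54 with 1 array left out. A second probe set of Angpt4 differed by -0.10.

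Partners and signaling genes of Tie2, 17 measured of 18, had a median of -0.02, and at unadjusted p under 0.05 there was 1 lower and 0 higher, where 5.49% of genes were lower and 4.54% higher at that limit. Pik3r1, the regulatory subunit of PI3 kinase through which Tie2 signals, was the 1 lower gene. It read 12.48, 12.39 and 12.48 in clodronate-liposome arrays and 12.62, 12.72 and 12.67 in PBS-liposome arrays, without overlap, a difference of -0.22 (SE 0.091, limma adjusted p = 0.434). Its 3 other probe sets differed by -0.26, -0.44 and -0.32. Dok2, a docking adaptor of Tie2, differed by 0.21 (SE 0.099, limma adjusted p = 0.505), and Tnip2 (ABIN-2), an inhibitor of NF-kB that binds Tie2, by -0.19 (SE 0.099, limma adjusted p = 0.549). Svep1, an extracellular matrix protein that acts on Tie receptors in lymphatic vessels, differed by 0.04 (SE 0.16).

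Foxo1, the transcription factor that active Tie2 keeps in check, read 11.98, 11.74 and 11.86 in clodronate-liposome arrays and 12.02, 12.03 and 12.11 in PBS-liposome arrays. All clodronate-liposome arrays lay below the others, with a difference of -0.19 (SE 0.10, limma adjusted p = 0.554). Its 3 further probe sets differed by -0.11, -0.22 and -0.17.

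Of the 13 FOXO1-linked and survival genes, all measured, 9 had a difference above 0 and 4 below 0, with a median of 0.16. Their mean log2 signal was 11.06 on each clodronate-liposome array and 10.87 to 10.90 on PBS-liposome arrays. At unadjusted p under 0.05 there were 4 higher and 0 lower (background 4.54% and 5.49%), and by overlap 3 were separated higher and 3 lower (background 7.49% and 8.75%). Those separated lower were Klf2 (-0.19, SE 0.098), Cited2 (-0.13, SE 0.093) and Sod2 (-0.12, SE 0.091), named after their values had been seen. Bcl6, a transcriptional repressor, read 9.87, 10.08 and 9.96 in clodronate-liposome arrays and 9.40, 9.51 and 9.48 in PBS-liposome arrays, a difference of 0.51 (SE 0.099, limma adjusted p = 0.110). Ccng2, a cyclin that restrains the cell cycle, read 11.63, 12.05 and 11.68 in clodronate-liposome arrays and 11.32, 11.24 and 11.19 in PBS-liposome arrays, a difference of 0.54 (SE 0.13, limma adjusted p = 0.174). These 2 genes did not overlap between groups, and their second probe sets were likewise separated, at 0.39 for Bcl6 and 0.51 for Ccng2. Pdk4, a kinase that limits pyruvate oxidation, read 7.32, 7.63 and 7.58 in clodronate-liposome arrays and 7.08, 6.73 and 7.20 in PBS-liposome arrays, a difference of 0.50 (SE 0.15, limma adjusted p = 0.258). Esm1, a secreted proteoglycan of activated and tip ECs, was named after its values had been seen. It read 11.72, 12.60 and 12.04 in clodronate-liposome arrays and 11.79, 11.57 and 11.08 in PBS-liposome arrays, overlapping, with a difference of 0.64 (SE 0.25, limma adjusted p = 0.414).

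**Figure D3:**
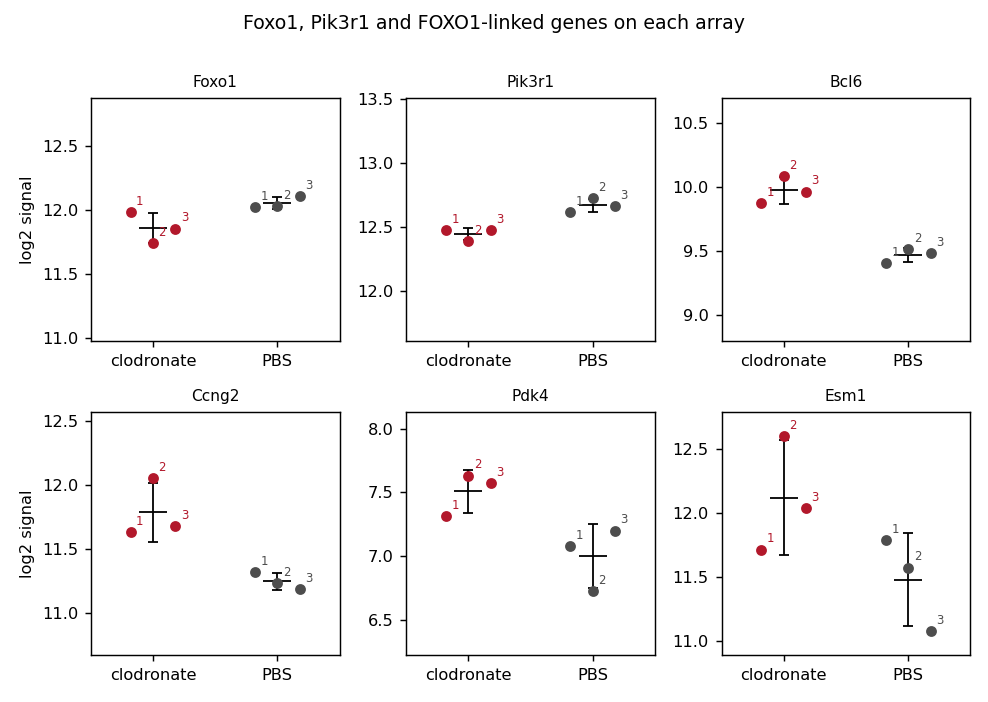
Log2 signal (vertical axes, each spanning the same range) of Foxo1, Pik3r1, Bcl6, Ccng2, Pdk4 and Esm1 on the 3 clodronate-liposome and 3 PBS-liposome arrays, with each dot an array labelled by its replicate number and black marks the mean ± SD. Foxo1 and Pik3r1 lay lower and Bcl6, Ccng2 and Pdk4 higher on all clodronate-liposome arrays, while Esm1 overlapped, and none passed the limma threshold. Klf2, Cited2 and Sod2, the FOXO1-linked genes separated lower, are not drawn.

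Genes around the angiopoietin-like proteins, 10 measured of 12, had a median of -0.07. At unadjusted p under 0.05 there were 1 higher and 1 lower, where 4.54% of all genes were higher and 5.49% lower. Lipg, the endothelial lipase, read 8.30, 7.87 and 8.09 in clodronate-liposome arrays and 7.58, 7.46 and 7.71 in PBS-liposome arrays, a difference of 0.51 (SE 0.13, limma adjusted p = 0.206), whereas its dimmer probe sets differed by 0.16 and -0.10. With the hybridization controls as a covariate the Lipg difference was 0.33, and with clodronate-liposome replicates 1 and 3 left out it was 0.29. Ppard, a nuclear receptor that induces Angptl4, read 9.65, 9.80 and 9.93 in clodronate-liposome arrays and 10.32, 10.04 and 10.17 in PBS-liposome arrays, a difference of -0.38 (SE 0.12, limma adjusted p = 0.281). Lpl, the lipase that Angptl4 inhibits, differed by -0.09 (SE 0.19), and Gpihbp1, the capillary protein that anchors Lpl, by -0.15 (SE 0.10, limma adjusted p = 0.670). The Gpihbp1 difference was -0.085 without clodronate-liposome replicate 2.

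**Figure D4:**
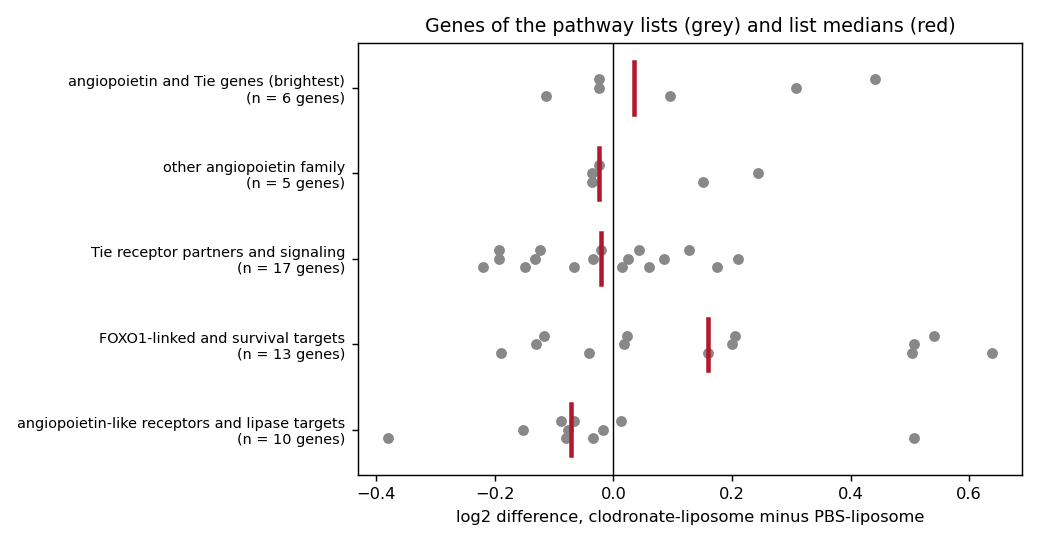
Log2 differences, clodronate-liposome minus PBS-liposome (horizontal axis), of the angiopoietin and Tie genes and of the measured genes of the 4 pathway lists, each by its brightest probe set, with grey dots the genes and red marks the medians. Medians were 0.04 for the 6 member genes, -0.02 for the other family genes, -0.02 for partners and signaling genes, 0.16 for the FOXO1-linked genes and -0.07 for the lipase-related genes.

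Patterns over the 6 arrays differed among members. The brightest probe sets of Angpt1 and Angpt2 had a Pearson r of 0.703, Angpt2 and Tek one of -0.202, and Tek and Tie1 one of 0.0958, given as descriptions over 6 arrays that share 2 groups. Among 10917 genes with signal above the median, those most like Angpt2 were Ccdc58 (r = 0.985), Sat1 (r = 0.979) and Gpam (r = 0.977), those most like Tek were Maco1 (r = 0.977), Zbtb25 (r = 0.966) and Lrrc8a (r = 0.960), and those most like Tie1 were Foxk2 (r = 0.991), Pmf1 (r = 0.986) and Dnaaf5 (r = 0.985). Differences of these 9 genes between groups lay between -0.09 and 0.27, none past the threshold. Each r is among the highest of 10917 searched over only 6 arrays. How high r would run by chance in such a search was not tested, so these values are no evidence of shared regulation.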

How the data were processed

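RNA of sorted lung ECs was hybridized to Affymetrix mouse arrays, with each sample on its own array. The deposited values were log2 signals, which the authors computed by robust multiarray averaging in Chipster, with background correction, quantile normalization and probe summary. They were used as deposited, so those steps could not be varied, and they hold no detection calls.

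Of 45101 rows, 64 manufacturer controls were set aside and 45037 were tested with limma 3.58.1 under R 4.3.3 (linear model with empirical Bayes variances, two-sided, neither covariate nor filter), following the methods' empirical Bayes test. P values were adjusted by Benjamini-Hochberg over all 45037. Symbols came from the platform annotation (34945 probe sets with 1 symbol, 932 with several, 9160 with none), and the symbols of all 11 member probe sets were matched in RefSeq by gene identifier. The main probe set of a gene was that with the highest mean signal. A probe set's signal depends on its probes, so levels are not compared between genes. Precision is limited by having 3 arrays in each group.

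Members and lists were chosen with earlier results of these data known. Named were all member probe sets, up to 3 genes with the smallest p per pathway list plus Foxo1, Svep1, Lpl and Gpihbp1, the first 2 markers per list, and the 3 genes most correlated with Angpt2, Tek and Tie1. Further genes were named after their values had been seen, as stated where they appear. The steps were tested on simulated data with 3 arrays per group. There 7 of 67 changes of 0.5 (log2) passed the threshold, as did 47 of 67 changes of 1 and 62 of 66 changes of 2. The largest member difference was 0.44, so differences of that size would mostly be missed. Replicates are called biological in the labels, and p values measure the spread between these samples. Alternatives were removal of dim probe sets, repeated quantile normalization, centring on array medians, a replicate block, trended and robust variances, array weights, leaving out each array, gene means over probe sets and an exact permutation test.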

Additional observations from a re-analysis of the deposited data

How the results depend on the processing

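The sample labels do not say whether replicate numbers pair the samples. Deviations of same-numbered arrays from their group means correlated at 0.0751, 0.0699 and 0.0361, and with 3 arrays per group such values cannot exclude a pairing. For the main probe set of Angpt1 the limma unadjusted p was 0.168, and 0.026 with the replicate block (adjusted p = 0.366). In limma 138 probe sets passed across the array. The replicate block gave 0 (5033 at unadjusted p under 0.05, smallest adjusted p = 0.0507), trended and robust variances gave 248 and array weights 234. Leaving out 1 array gave 6 to 73, with 33, 73 and 23 when the array dropped was clodronate-liposome replicate 1, 2 or 3, and 15, 6 and 16 when it was PBS-liposome replicate 1, 2 or 3. Of the member probe sets and the 4 pathway lists, 0 passed in every setting run. At unadjusted p under 0.05 there were 4 member probe sets with the block and 2 each with trended and robust variances (4974 across the array) and with array weights (6297). Angpt2 had an adjusted p of 0.335 with the block (limma) and 0.28 to 0.61 over its alternatives.

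With 1 array left out, Angpt2 was 0.32 to 0.60, Angpt1 0.13 to 0.46 (0.13 without clodronate-liposome replicate 1, 0.14 without PBS-liposome replicate 3) and Tie1 0.04 to 0.16. The exact permutation test gave p = 0.2 for Angpt2 and p = 0.4 for Angpt1, where 0.1 is the smallest possible. Signs turned for values near 0. Tek was 0.0020 with array weights and -0.075 to 0.013 with 1 array left out, and Ptprb was 0.0092 as the mean of its probe sets and -0.088 to 0.038 with 1 array left out. Over the same omissions probe set 1453908_at of Ptprb was -0.15 to 0.0048, Angptl4 -0.36 to 0.15, its dim probe set -0.0097 to 0.21, Angpt4 -0.060 to 0.54, Angptl7 -0.087 to 0.018, Svep1 -0.080 to 0.22 and Lpl -0.29 to 0.094. Angptl8 (0.0084 to 0.37) and Gpihbp1 (-0.19 to -0.085) kept their sign.

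A pair of settings was chosen after seeing the data, and each gave 0 probe sets across the array. With the hybridization controls as a covariate (4710 at unadjusted p under 0.05), Tie1 was -0.0030, probe set 1427486_at of Ptprb -0.014, Angptl7 0.012, Svep1 -0.20 and Angpt2 0.54. With clodronate-liposome replicates 1 and 3 left out (3964), where the lone treated array is assumed to vary like the PBS-liposome arrays, they were -0.039, -0.084, 0.063, -0.31 and 0.68. Among values that kept their sign, these settings gave 0.33 and 0.29 for Lipg, -0.26 and -0.29 for Gpihbp1, 0.42 and 0.43 for Angptl8, 0.14 and 0.12 for Dok2, -0.12 in both for Tnip2, and -0.31 for Foxo1 in the second. The cause of these shifts was not tested. The files hold no detection calls, so signal over background was not assessed, and dim probe sets are the least certain.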
